A study of Rattus norvegicus with 4 samples.

Results

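Dense windows are stretches of 1 Mb in the rat genome that held at least 60 regions of open chromatin called in every library of retinal ganglion cells (RGCs). The 20 numbered chromosomes were tiled in windows of 1 Mb, the open chromatin regions (OCRs) of the 4 libraries were merged wherever they overlapped by at least 1 bp, and each merged region was placed by its midpoint. All regions of a dense window were taken as members, whichever libraries had called them. There were 225 dense windows among 2610 windows with any region (8.62%), and they held 36464 of the 224715 merged regions (16.2%). The windows were chosen by measured values, the calls in all 4 libraries, so how many such regions a member window holds is a description and is not tested.

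RGCs were obtained from Sprague Dawley rats either on embryonic day 21 (E21) or on postnatal day 11 (P11), 2 libraries per stage, with no treatment and no genetic change in either stage. Retinas were dissociated with papain and the cells were immunopanned, first with an anti-macrophage antibody to remove macrophages and then with an antibody to Thy1, a surface protein of RGCs, to hold the RGCs. Each library came from 300000 frozen cells of a litter of its own, so the animals of a litter were pooled and the replicates are separate litters. The labelled cell type was not checked here against marker genes, because no annotation of the build of the lists was used.

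RGCs are the neurons that carry the visual signal from the retina to the brain, and their capacity to grow axons declines around birth. The stages were chosen to ask how chromatin accessibility changes across that decline. In ATAC-seq a transposase inserts adapters into DNA that is not wrapped tightly in nucleosomes, and promoters and enhancers appear as short peaks of insertions. Such elements are not spread evenly along chromosomes. They gather in stretches rich in genes, and large stretches poor in genes are packed in closed chromatin.

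The lists held between 123707 and 163714 OCRs on numbered chromosomes, with E21 replicate 1 the shortest. Depth can be read from the genome-wide background, which was 4.80 and 5.03 fragments at E21 and 4.30 and 4.17 at P11. The longer a list is, the more regions it can share or hold alone, so shares of regions per stage move with the length of the lists. In these bulk libraries, fewer cells with an open site and a weaker signal in each cell cannot be told apart.

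Of the members, 15327 (42.0%) were called in all 4 libraries, 2099 (5.76%) in both E21 libraries and neither P11 library (E21-only), and 4593 (12.6%) in both P11 libraries and neither E21 library (P11-only). The other 14445 members (39.6%) had another pattern, most of them in a single library. Over all regions of the numbered chromosomes, 7.61% were E21-only and 12.5% were P11-only. Dense windows thus held a lower share of E21-only regions than the genome and almost the same share of P11-only regions. Outside them, 7.97% of 188251 regions were E21-only and 12.5% were P11-only. The 95% Wilson interval of the E21-only share was 5.52 to 6.0% in members and 7.85 to 8.09% in the rest, and that of the P11-only share was 12.3 to 12.9% and 12.3 to 12.6%. These intervals cover counting error only, and since the choice of windows rich in regions of all libraries pushes both stage-only shares down, the shares themselves are a description.

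The balance between the stages was not used to choose the windows. Among the 6692 stage-only members 68.6% were P11-only (67.5 to 69.7%, Wilson), and among the 38513 stage-only regions elsewhere 61.0% were (60.6 to 61.5%). The difference was 7.59 percentage points. Per window, the dense windows held on average 9.33 E21-only and 20.4 P11-only regions, against 6.29 and 9.86 in the other windows. Regions of any kind also numbered more in dense windows, 162 on average against 78.9. P11-only regions were 12.6% of members and 12.5% of the rest, and E21-only regions were 5.76% and 7.97%. The totals behind these shares include regions called in all libraries, 42.0% of members and 34.9% of the rest. The choice of windows favours such regions, so which stage-only class kept step with the totals is a description.

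Each E21 library was set against each P11 library to see how far the balance rested on any of them. For E21 replicate 1 and P11 replicate 1, 70.9% of the members called in just 1 of the pair were called at P11, against 64.1% elsewhere. For E21 replicate 1 and P11 replicate 2 the values were 72.6% and 69.97%. For E21 replicate 2 and P11 replicate 1 they were 56.9% and 48.1%, and for E21 replicate 2 and P11 replicate 2 they were 58.98% and 54.8%. The P11 share was higher in dense windows in 4 of 4 pairs, by 5.61 ± 2.72 points (SD over pairs, which share libraries), while its level moved by more than that with the E21 library used. The pairs with P11 replicate 1 had the larger differences, of 6.78 and 8.80 points against 2.67 and 4.19. Without P11 replicate 1 the difference of 7.59 points became 3.23, with 72.6% in members and 69.4% elsewhere. Without E21 replicate 1, the library with the shortest list, the P11-only share was 52.8% in members and 44.8% elsewhere.

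When the 120000 OCRs of highest −log10 q value were taken from each library, so that all lists had the same length, and the 225 windows were kept, 54.9% of stage-only members and 48.5% of stage-only regions elsewhere were P11-only. The excess of P11-only over E21-only members was thus smaller with lists of equal length, and outside the dense windows it turned into a small excess of E21-only regions. The difference between dense windows and the rest was 6.41 points.

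The balance followed the density of regions over its whole range and did not start at the limit of 60. In windows with at most 9 regions called in all libraries, 45.0% of stage-only regions were P11-only (42.8 to 47.3%, Wilson). The share was 54.7% in windows with 10 to 19 such regions, 59.6% with 20 to 29, 62.6% with 30 to 39, 64.2% with 40 to 49 and 65.2% with 50 to 59. Within the dense windows it was 67.4% with 60 to 69 regions (66.0 to 68.8%) and 70.6% with 70 to 96 (68.8 to 72.4%). As a share of all regions, E21-only regions went from 12.9% in the sparsest windows to 5.30% in the densest. P11-only regions were between 10.5 and 13.0% of all regions. Regions called in all libraries, by which the windows are ordered, went from 22.7 to 43.1% of all regions. This pushes both stage-only shares down along the order by construction, so their course is a description. Just outside the limit, 96 windows with 55 to 59 regions had a P11-only share of 64.3%, and just inside it, 86 windows with 60 to 64 had 67.1%. From the sparsest to the densest windows the P11 share went from 46.6 to 72.1% in the pair of both first replicates and from 48.5 to 60.6% in the pair of both second replicates. With E21 replicate 1 and P11 replicate 2 it went from 60.2 to 73.9%, and with E21 replicate 2 and P11 replicate 1 from 35.0 to 58.7%. In the pairs with P11 replicate 2 the share was nearly level between 20 and 59 regions per window, at 69.8 to 71.3% and 54.5 to 55.9%.

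**Figure D1:**
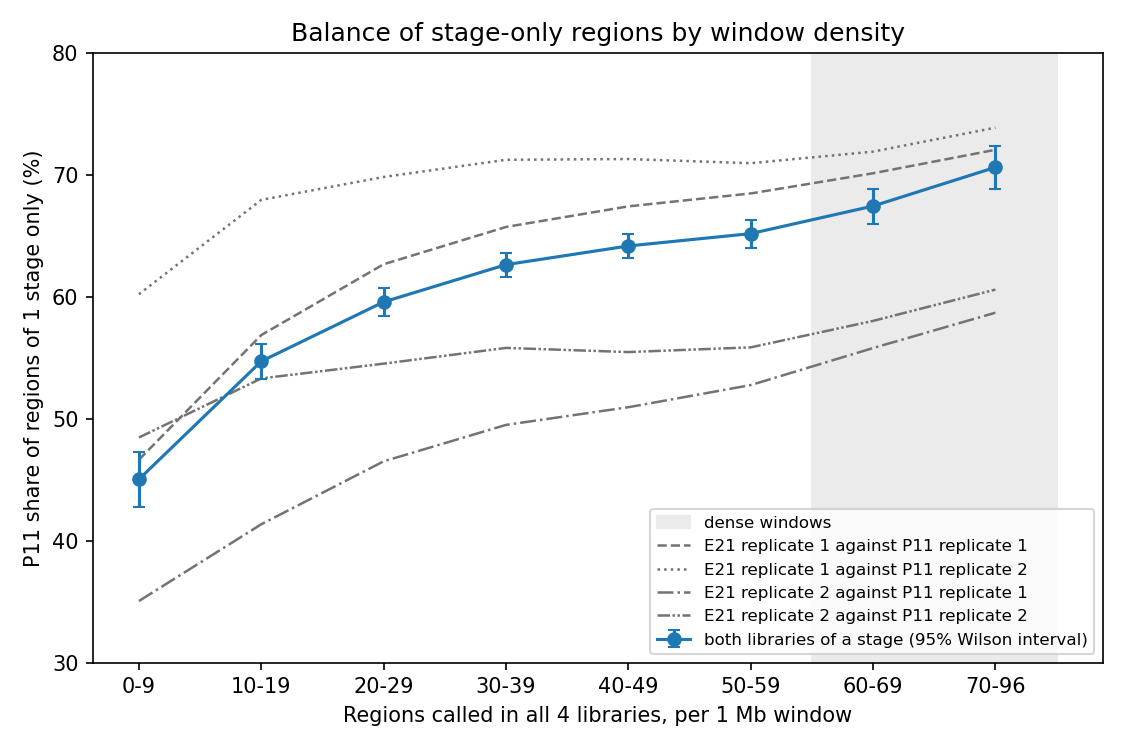
P11 share (%) of regions called at 1 stage only, by the number of regions per 1 Mb window that all 4 libraries had. Blue points take regions of both libraries of a stage with 95% Wilson intervals, grey lines are the 4 pairs of an E21 and a P11 library, and the shaded bins are the dense windows. The blue points go from 45.0% to 70.6%, and each grey line ends higher than it starts.

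On single chromosomes the same comparison gave a higher P11-only share in dense windows on 19 of 20 chromosomes. Differences ranged from −0.34 points on chromosome 9 to 15.5 on chromosome 18, with a median of 7.10. Chromosome 18 had 5 dense windows, in which 77.0% of stage-only regions were P11-only against 61.6% elsewhere on it. Chromosome 10 had 12 dense windows, with 61.3% in them and 49.1% outside. Chromosome 17 stood high in both places, with 78.2% in its 11 dense windows and 74.6% outside. With chromosome 17 left out, a choice made after seeing the data, the shares were 68.1% and 60.5%. Dense windows were themselves unevenly spread, from 2.68% of the windows of chromosome 15 to 22.8% of those of chromosome 20, with 17.3% on chromosome 12 and 14.2% on chromosome 7.

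**Figure D2:**
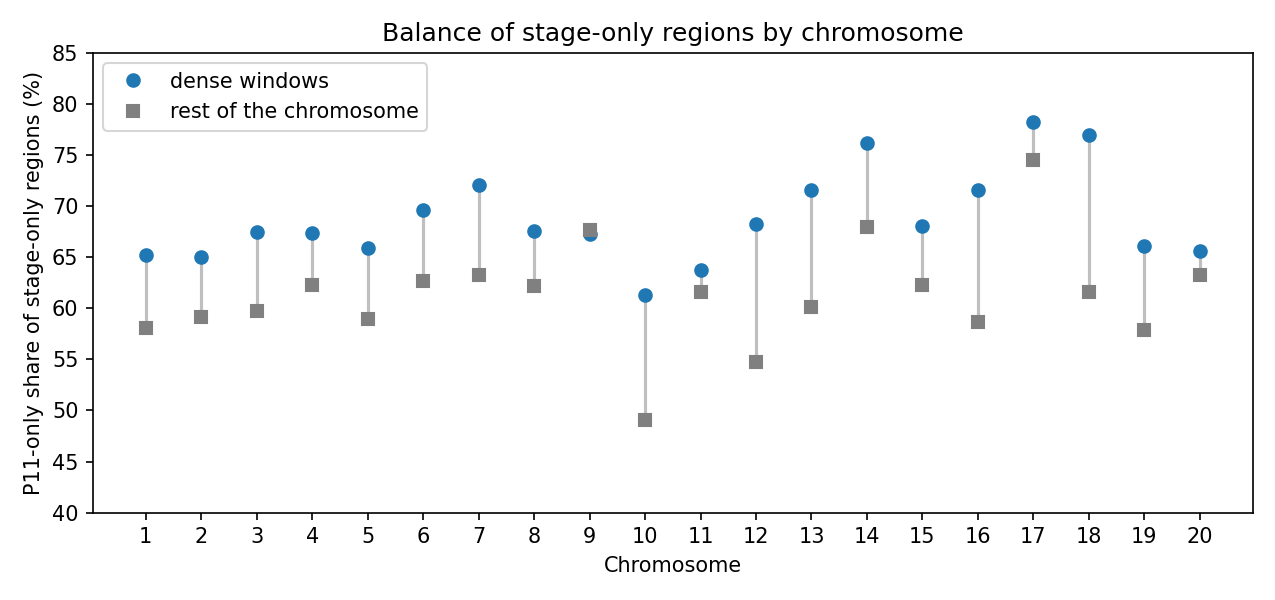
P11-only share (%) of stage-only regions on each numbered chromosome, in its dense windows (blue circles) and in the rest of it (grey squares), joined by a line. The circle lies above the square on 19 of 20 chromosomes, and chromosome 9 is the exception.

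Each library gave a similar share of its own regions to the dense windows. This share was 17.2% (E21 replicate 1), 16.5% (E21 replicate 2), 17.9% (P11 replicate 1) and 16.99% (P11 replicate 2), and the stages overlapped. The means were 16.8 ± 0.46% and 17.5 ± 0.66% (SD, n = 2), and the difference of 0.61 points was within the SD of the P11 libraries (exact permutation test, two-sided, p = 0.667). Regions called in all 4 libraries are common to every list and hide differences between lists. Of the regions of a library that were not called in all 4, 13.6 and 13.7% at E21 and 16.7 and 15.02% at P11 lay in dense windows. Here the stages did not overlap, and the difference between the means, 13.7 ± 0.047% and 15.9 ± 1.22% (SD, n = 2), was 2.22 points, larger than either SD. The exact permutation p was 0.33, the smallest that 2 against 2 libraries can give. In all, 8 values per library were compared between the stages in this way, and the lowest p after Benjamini-Hochberg adjustment of these exact permutation tests was 0.444. No such test can give less than 0.33 before adjustment, even where the stages do not overlap. The adjusted value is therefore no evidence that the stages are alike.

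Regions called in all 4 libraries cannot be missing at the other stage, and the windows were chosen for many of them. The share of a library's members that the other stage lacked is therefore a description, and members were not tested against the rest. This share and its difference from the rest were compared only between the stages, among the 8 values above. Of the members called in a library, 14.3 and 17.8% at E21 and 27.4 and 28.0% at P11 were absent from both libraries of the other stage. Elsewhere the E21 lists gave 19.999 and 24.8% and the P11 lists 29.8 and 32.2%.

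Windows were chosen again on 3 libraries at a time and the fourth was held out. This asked whether regions of dense windows are found in the held-out litter more often than regions elsewhere. Without E21 replicate 1, 426 windows held at least 60 regions called in all the others, and 86.0% of those regions were found in the held-out library, against 86.1% of such regions elsewhere. With E21 replicate 2 held out, 97.5% were found in 249 windows and 97.4% elsewhere. With P11 replicate 1 held out the values were 93.3% in 310 windows and 90.4% elsewhere, and with P11 replicate 2 they were 94.4% in 288 windows and 94.3% elsewhere. The difference was positive in 3 of 4 libraries and averaged 0.73 ± 1.44 points (SD, n = 4; exact sign permutation test, two-sided, p = 0.5, smallest possible 0.13). The 4 comparisons reuse the same libraries, so they are not independent of each other. A difference in how often a region of a dense window was found again was therefore not detectable with these libraries. The difference was 2.89 points in P11 replicate 1 and 0.077 in P11 replicate 2, so the other litter of that stage did not repeat it.

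Regions called in all libraries were also compared by rank, the percentile of the −log10 q value of a region within the list of its own library. For the 15327 such members the median rank at E21 was 66.1 and 71.9, and at P11 it was 71.98 in both libraries, against 64.9 and 71.9 at E21 and 69.9 and 72.0 at P11 in the 65770 elsewhere. Members ranked 1.14 points above the rest in E21 replicate 1 and 2.12 above in P11 replicate 1. In both second replicates the median ranks of members and rest were within 0.1 point of each other. The stages did not separate, with a difference of 0.47 points (exact permutation p = 1, two-sided), and without E21 replicate 2 its sign turned, to −0.21 points.

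Rank-shifted regions were those that both libraries of a stage placed above both of the other, with at least 25 points between the means of the stages. By this rule 1217 members (7.94%, 7.52 to 8.38%, Wilson) ranked higher at E21 and 1883 (12.3%, 11.8 to 12.8%) at P11. Over all regions called in all libraries, 8.65% ranked higher at E21 and 12.3% at P11, so the members' shares were near the background. P11 accounted for 60.7% of rank-shifted members and for 58.1% of rank-shifted regions elsewhere. With lists of equal length, in the same 225 windows, 10.9% of shared members ranked higher at E21 and 10.4% at P11. When only shared regions were ranked against each other, these values became 11.2% at E21 and 12.3% at P11. The share at E21 was thus higher under both settings than in the full lists, and the order of the stages differed between these settings.

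The signal around the members differed more than their rank. The fold enrichment and p value of an OCR were solved for the pileup at its summit, in fragments, and for the local background that the caller had set it against. In the regions called in all libraries, the median pileup was 58 and 73 fragments in members at E21 and 48 and 49 at P11, against 52 and 65 at E21 and 40 and 44 at P11 elsewhere. The members had the higher pileup in 4 of 4 libraries. Their median fold was nevertheless the lower one in 4 of 4 libraries, with 6.89 and 7.35 at E21 and 5.57 and 5.85 at P11 in members against 7.36 and 8.12 at E21 and 5.91 and 6.41 at P11 elsewhere.

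Fold is the pileup over the local background, and that background was the higher one in members. Its median in members was 1.51 and 1.76 times the genome-wide background of the library at E21 and 1.75 and 1.74 times at P11. Elsewhere it was 1.17 and 1.32 times at E21 and 1.26 and 1.31 times at P11, so members were higher by 1.30 to 1.39 times in each library. Local background is read from the fragments around a peak, and the windows were chosen for many open regions, so its level is a description. Stage-only members also lay in a raised background, with medians of 1.1 and 1.21 times at E21 and 1.36 and 1.35 times at P11. Stage-only regions elsewhere were at 1.0 in each library, the lowest value that this ratio can take. A background more than 5 times the genome-wide level in any library was found at 3.89% of members and 1.84% of the rest. Leaving those regions out, a choice made after seeing the data, gave P11-only shares of 68.7% in members and 61.1% elsewhere. Among regions whose background was at most 1.1 times in every library that had them, also chosen after seeing the data, the shares were 60.5% and 54.6%. The part of local background in the balance of stages was not tested beyond these values.

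**Figure D3:**
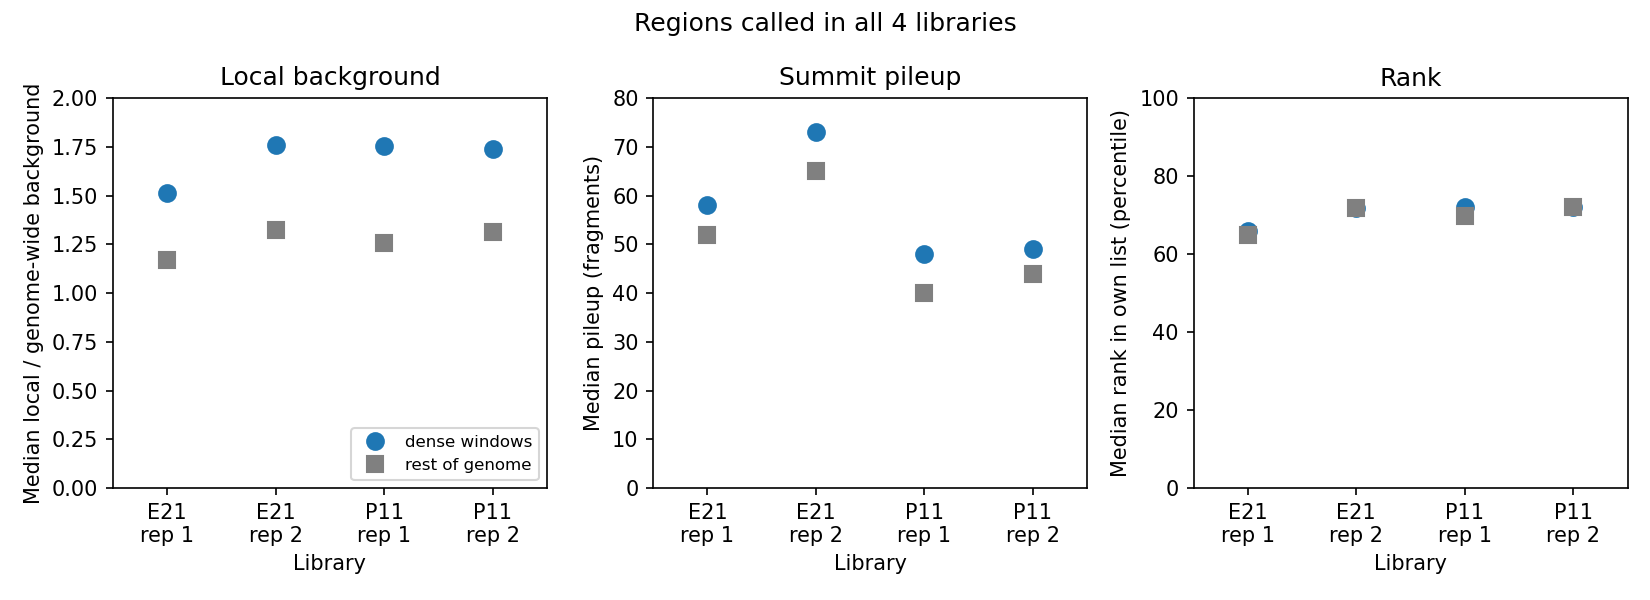
Medians over regions called in all 4 libraries, in dense windows (blue circles) and elsewhere (grey squares), for each library. The panels give local background as a multiple of the genome-wide background, summit pileup in fragments, and rank in the library's own list as a percentile. The circles lie above the squares in all libraries for background and pileup, and nearly coincide for rank.

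The regional level also shifted between the stages in some dense windows, and in some other windows. For each window the median local background over the regions called in all libraries was taken. It was higher in both P11 libraries than in both E21 libraries in 79 of 225 dense windows (35.1%, 29.2 to 41.6%, Wilson). It was lower in both P11 libraries in 33 (14.7%, 10.6 to 19.9%, Wilson). Over the 1766 windows of the genome with at least 20 such regions, 33.6% were higher at P11 and 21% were higher at E21. The share of dense windows higher at P11 was thus near that of all windows, and the share higher at E21 was lower. The ratio of the P11 to the E21 mean had a median of 1.06 over the dense windows and ran from 0.69 at chr7:117000001-118000000 to 1.67 at chr1:53000001-54000000. The latter window held 37 P11-only and 6 E21-only regions, and its local background was 1.55 and 1.74 times at E21 and 2.69 and 2.82 times at P11. The former held 11 P11-only and 6 E21-only regions at 2.45 and 2.33 times at E21 and 1.75 and 1.53 times at P11. These 2 windows were picked after their values were seen.

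A dense window held between 86 and 227 regions, with a median of 162, and its regions covered 8.76% of its length at the median (5.43 to 12.01%), against 4.01% in the other windows. Regions called in all libraries numbered 60 to 96 with a median of 67. E21-only regions numbered 0 to 19 with a median of 9, and P11-only regions 0 to 49 with a median of 19. Among 204 dense windows with at least 20 stage-only regions, the P11-only share ran from 29.6 to 100% with a median of 70.3%. It was above 50% in 184 windows, at 50% in 5 and below in 15, and 144 windows were above the share of 62.2% that holds over all stage-only regions of the genome. In 871 other windows with at least 20 stage-only regions the median was 65.0%, with a range of 10.0 to 100%.

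**Figure D4:**
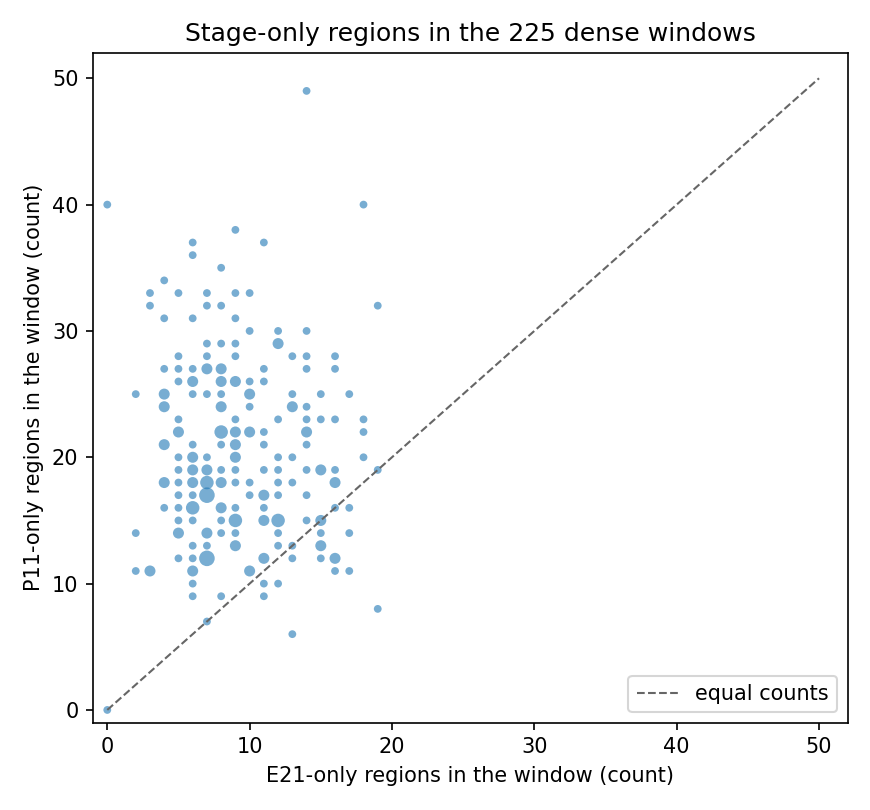
E21-only regions (horizontal axis, count) and P11-only regions (vertical axis, count) in each of the 225 dense windows, with the line of equal counts. A larger point stands for several windows with the same counts. Most points lie above the line, E21-only counts stop at 19 and P11-only counts reach 49.

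The windows with the most regions called in all libraries were chr1:46000001-47000000 and chr7:12000001-13000000, with 96 each. The first had 9 E21-only and 22 P11-only regions, and the second had 11 and 17. Next came chr8:116000001-117000000 with 92 regions in all libraries and 5 E21-only and 22 P11-only regions. At chr14:11000001-12000000 there were 89, with 12 and 30, and at chr7:11000001-12000000 there were 88, with 4 and 25. P11-only regions outnumbered E21-only regions in all 5.

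The highest P11-only share was found at chr17:13000001-14000000, where 40 regions were P11-only and 0 were E21-only beside 73 called in all libraries. The libraries called 85 and 105 regions there at E21 and 144 and 161 at P11. The 40 P11-only regions count in both P11 totals and in neither E21 total. Windows in this paragraph were picked for such regions, so the separation of these counts is a description. Of the 73 shared regions, 18 ranked higher at P11 and 3 at E21, and the median change in rank was 8.32 points. Local background in this window was 1.12 and 1.39 times the genome-wide level at E21 and 1.79 and 2.12 times at P11. The next windows were chr17:10000001-11000000, with 25 P11-only and 2 E21-only regions (92.6%), and chr12:6000001-7000000, with 33 and 3 (91.7%). The first of these had 88 and 105 regions called at E21 and 123 and 134 at P11. The second had 97 and 113 at E21 and 147 and 148 at P11.

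At the other end, chr1:278000001-279000000 held 19 E21-only and 8 P11-only regions, a P11-only share of 29.6%. The libraries called 101 and 122 regions there at E21 and 102 and 97 at P11, with overlap between the stages, and the median rank of its 64 shared regions was 4.0 points lower at P11. At chr10:15000001-16000000 there were 17 E21-only and 11 P11-only regions (39.3%), and at chr1:104000001-105000000 there were 16 and 11 (40.7%).

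Some other windows, picked after their values were seen, show the range of the members. The most P11-only regions, 49, lay at chr7:115000001-116000000, next to 14 E21-only regions. At chr1:180000001-181000000 no region was stage-only, 68 were called in all libraries and 18 in another pattern, and the local background was 2.80 to 4.13 times the genome-wide level. The median change in rank of shared regions per window ran from −5.29 points at chr3:154000001-155000000 to 15.5 points at chr16:22000001-23000000, with a median of 0.62, and was above 0 in 147 of 225 windows. The latter window had 16 shared regions ranked higher at P11 and 1 at E21, and 32 P11-only and 7 E21-only regions. The other windows are not counted here in this way. Between single libraries, the median change over all shared members was 2.56 and 2.70 points from E21 replicate 1 to P11 replicates 1 and 2. From E21 replicate 2 it was −0.29 and −0.31. In shared regions elsewhere it was 1.88 and 3.40, and −1.08 and −0.12, so the sign followed the E21 library in both places. Across the 204 dense windows with at least 20 stage-only regions, the P11-only share and the median change in rank had a Spearman correlation of 0.33, and across the 871 other windows it was 0.46. Both measures come from the same 4 libraries, so this is a description.

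Of the 225 dense windows, 133 had no dense window beside them, and the others adjoined another dense window. They formed 171 runs of neighbouring windows, of which 133 were a single window and 12 had at least 3 windows, 40 windows in all. Whether dense windows lay together more often than under random placement was not tested. The longest run was chr17:9000001-14000000, 5 windows with 346 regions in all libraries, 28 E21-only and 136 P11-only regions (82.9% P11-only). A run of 4 windows lay close to it at chr17:4000001-8000000, with 36 E21-only and 98 P11-only regions (73.1%). The other run of 4, chr20:5000001-9000000, had 39 and 62 (61.4%), near the share of the genome.

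Stage-only members lay nearer to other regions than stage-only regions elsewhere, which the choice of dense windows favours. The median distance to the nearest region called in all libraries was 5038 bp for E21-only and 4855 bp for P11-only members, against 10468 and 8138 bp elsewhere. P11-only members were thus slightly nearer to a shared region than E21-only members, and elsewhere the gap between the kinds was larger. Stage-only members were narrower than shared ones, with median widths of 339 bp (E21-only) and 409 bp (P11-only) against 723 bp, and these widths were close to those elsewhere, 348, 416 and 707 bp. Stage-only members ranked low in their own lists, with medians of 29.5 and 37.1 for E21-only members at E21 and 36.2 and 37.2 for P11-only members at P11. Their summits held 30 and 35 fragments at E21 and 28 and 29 at P11, against a lowest summit of 14 fragments at E21 and 13 at P11.

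A few stage-only members ranked far higher than that. The E21-only member chr10:102810478-102811474 had a fold of 13.3 and 11.7, a pileup of 128 and 115 fragments and ranks of 89.3 and 87.7 in the E21 libraries. At chr1:87556109-87556655 an E21-only member had folds of 15.2 and 14.5 with 87 and 98 fragments over a background of 1.0 and 1.16 times. The highest-ranked E21-only member by mean rank, chr4:146546103-146546349, had folds of 2.66 and 2.78 with 626 and 840 fragments, on a background of 48.9 and 59.8 times the genome-wide level. The P11-only member chr2:198797007-198797744 had folds of 15.2 and 15.8, with 110 and 101 fragments and ranks of 96.6 and 96.5 in the P11 libraries. Next were chr7:35283699-35284299, with folds of 8.25 and 10.9 and 91 and 137 fragments, and chr14:79682538-79683228, with 7.91 and 7.45 and 122 and 115 fragments on a background of 3.38 and 3.49 times. These members were ranked by the values given, so the values are a description.

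The same holds for shared members with the largest changes in rank, which were picked after their values were seen. At chr20:47802537-47803293 the E21 ranks of 13.6 and 3.95 stood against P11 ranks of 87.6 and 91.1, with 21 and 18 fragments at E21 and 79 and 94 at P11. At chr4:123880835-123881356 E21 ranks of 83.9 and 90.1 stood against P11 ranks of 5.03 and 8.79, with 82 and 109 fragments at E21 and 16 and 17 at P11. At both sites every library of a stage lay clear of every library of the other in rank, which the rule for rank-shifted regions requires. Among the strongest shared members, chr2:198589786-198590317 had folds of 48.3 and 43.7 at E21 and 46.3 and 51.3 at P11, with overlap between the stages. Its summit held 908 and 726 fragments at E21 and 597 and 900 at P11.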

How the data were processed

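ATAC-seq was measured in 2 E21 and 2 P11 libraries, grouped by their GEO labels. The authors ran the ATAC-seq Integrative Analysis Package (AIAP) on each library and called its OCRs apart from the others. The submitters' processing notes name MACS2 and the builds Rnor_6.0 and rn6, and versions and settings are not given in the sources used here. The deposited lists give a score, a fold enrichment (ratio), −log10 p-value and −log10 q-value and the summit offset. The lowest −log10 q was 2.01 to 2.02. Lists were used as deposited (0 duplicate lines), merged and tiled with pandas 2.3.3, and tested with scipy 1.17.1 by exact permutation over libraries (2 against 2 libraries cannot give a p below 0.33). Coordinates are 1-based positions of the lists. Fold and p were solved for the summit pileup, which was whole, within 0.02 fragments, in 100% of OCRs. Read totals were not used. The scripts were tested on simulated data. Members and lists were chosen with earlier results of these data known. Named windows were the 5 with the most regions called in all libraries, and the 3 with the highest and the 3 with the lowest P11-only share among those with at least 20 stage-only regions. Named members were the highest in mean rank of each stage-only class. Planned gene lists, markers and sequences need the build of the lists and were not used here.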

Additional observations from a re-analysis of the deposited data

How the results depend on the processing

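The P11-only share of stage-only regions was higher in dense windows than elsewhere under 15 of 15 alternatives, by 3.23 to 8.95 points. Its level and the number of windows moved more. The number of dense windows was 482 at a minimum of 50 shared regions (71675 members), 79 at 70 (13863 members), 612 with windows of 500 kb and a minimum of 30, 123 with a −log10 q of at least 5 (18683 members) and 78 with lists of equal length (10902 members). In the windows as first chosen, lists of equal length gave 8.69% E21-only members, a P11-only share of 54.9% and 10.9% of shared members ranked higher at E21. Regions with a local background of at most 1.1 times, chosen after seeing the data, gave a P11-only share of 60.5%. A rank difference of 10 points gave 18.5% of shared members higher at E21 and 24.3% at P11, a difference of 40 points gave 2.24% and 4.65%, and ranks among shared regions gave 11.2% at E21 and 12.3% at P11. The cause of these moves was not tested, apart from those that the stricter or looser limit makes by construction.

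Leaving out each library in turn gave 249 to 426 windows and 37815 to 63693 members where windows were chosen anew. All other values kept the windows as first chosen. E21-only shares there were 8.61 to 12.4% and P11-only shares 13.9 to 22.8%. The P11-only share of stage-only members was 52.8 to 72.6%. Its difference from the rest was 3.23 points (without P11 replicate 1) to 8.01 (without E21 replicate 1). Members ranked higher at E21 were 7.13 to 10.8% and at P11 13.1 to 18.8%. The stage difference in median rank was −0.21 (without E21 replicate 2) to 2.10 points. With fewer libraries to agree, the counts of windows and members can grow by construction, as can the shares of E21-only and P11-only members. The rule for rank-shifted regions also asks fewer libraries to agree, so those shares can grow too. The share ranked higher at P11 rose from 12.3% in each case. The remaining values, with the share ranked higher at E21, moved both up and down, and the cause was not tested. With the replicate block, which pairs libraries of the same number, the P11-only share was 65.0% and the difference 5.70 points. The numbers do not pair the litters (correlation of deviations 0.039). Depth is known only as background pileup, and regions under 13 or 14 fragments at the summit could not be called.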

Other observations

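The X chromosome was outside the numbered chromosomes. It held 4000 regions, of which 1328 were called in all 4 libraries, and none of its 159 windows reached 60 such regions, the most being 37. Of its stage-only regions, 310 were E21-only and 482 were P11-only, a P11-only share of 60.9% (57.4 to 64.2%, Wilson), near the 61.0% found outside the dense windows of the numbered chromosomes. Regions seen in 1 library only were more numerous per window in dense windows, at 39.3 against 22.1, though a lower share of the regions there, 24.3% against 28.0%, which the choice of windows rich in regions of all libraries favours. Single-library regions of P11 replicate 1 made up 7.39% of members and 6.74% of the rest. Those of the other 3 libraries made up a smaller share of members than of the rest.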
